A study of Saccharomyces cerevisiae with 9 samples.

Results

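The proteins of the large (60S) ribosomal subunit of budding yeast are encoded by 81 of the 7127 genes in the count tables. They were chosen by name alone: every standard R64 name made of RPL and a number, with an A or B where the gene has 2 copies, plus the stalk genes RPP0, RPP1A, RPP1B, RPP2A and RPP2B. Of these, 66 genes form 33 A and B pairs, and 15 genes (10 RPL genes and the 5 stalk genes) were not treated as pairs. The genes lie on 14 chromosomes, and 53 of them carry an intron in their coding region. They were compared between early, mid and late log, each with 3 libraries of polyadenylated RNA that the labels number as replicates. The study reports some variation in OD600 between the triplicates of a subphase, but does not say of these libraries that they came from separate cultures. The p-values therefore measure only the spread between libraries, which may be technical in part. Every library came from the same MATa strain, labelled wild type, with the alleles can1-100, his3-11, ade2-1, trp1-1 and ura3-1, a leu2 allele that carries mutations 3 and 112, and with an HA and His tag on RPA135, a subunit of RNA polymerase I, marked by TRP1. All cultures were grown in YPD at 30 °C with no treatment named, and the subphases are defined by the density at harvest. The study's methods give an OD600 between 0.2 and 0.3 at the early log harvest, between 0.5 and 0.7 at mid log and between 0.8 and 1.0 at late log.

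The large subunit holds the peptidyl transferase centre, where peptide bonds form, and the tunnel through which the new chain leaves. Its proteins assemble with its rRNAs in the nucleolus and are made in near equal amounts. In yeast the mRNAs for ribosomal proteins are among the most abundant of growing cells, and their transcription, driven by Rap1 with Fhl1, Ifh1 and Sfp1, follows the supply of nutrients through the TOR and protein kinase A pathways. Most of the genes exist as a pair of copies left by an ancient duplication of the genome, which encode identical or nearly identical proteins.

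Between 22830165 and 34358259 reads were counted on genes in each library. Of all reads, 7.46% to 11.2% matched more than 1 place and were not counted. Early log replicates 1 and 2 were sequenced in run 1, all of mid log in run 2, and all of late log in run 3 together with early log replicate 3, so that subphase and run cannot be told apart between mid log and the rest. Early log replicate 3 and mid log replicate 1 stood apart from the other replicates of their subphases. The study describes 2 deviating samples, which it calls early log C and mid log A, without giving their replicate numbers. It places them at the upper and the lower limit of the OD600 range of early and mid log, respectively. Early log replicate 3 was in another run than its replicates, whereas mid log replicate 1 shared the run of its replicates. What set these libraries apart was not tested. The chi-square per degree of freedom of the counts was 447 and 502 between early log replicate 3 and the other early log libraries, against 8.87 between those, and 652 and 684 between mid log replicate 1 and the other mid log libraries, against 16.6 between those. Genes of MATa cells were present (607 to 2289 CPM summed over 4 genes), those of MATalpha cells were near 0 (2.54 to 3.93 CPM over 3 genes), and 5 genes induced when glucose runs out summed to 27.3 to 45.9 CPM in all libraries.

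Large subunit genes were among the most abundant transcripts in each subphase. Levels between genes were compared per length, as CPM (counts divided by the library's TMM-scaled total) per kilobase of coding sequence. They were not corrected for reads that match both copies of a pair, so levels of nearly identical copies can be understated. By this measure 45 of the 81 genes were among the 100 highest of 6008 genes in early log, 34 in mid log and 41 in late log. The median large subunit gene stood at 3448 CPM per kilobase in early log, 2758 in mid log and 3892 in late log, beside 18.4, 13.4 and 13.3 for all genes. The highest gene was RPP1A in early log (7551 ± 2776, SD, n = 3), RPP0 in mid log (15889.8 ± 6071) and RPL43A in late log (15119 ± 443). RPL28 was the runner-up in every subphase, with 7462 ± 2444, 12356 ± 2502 and 14269.8 ± 946 CPM per kilobase. In early and mid log the highest 5 genes overlapped in their ranges, and their order is therefore not resolved by the spread of the libraries. In late log RPL28 (13353 to 15243) overlapped with RPL43A (14624 to 15477) and with RPP1A (13755 to 14480), so its place is not resolved there either. RPL15B was the lowest gene in every subphase, at 26.8 ± 7.35, 8.06 ± 9.81 and 7.02 ± 1.10 CPM per kilobase. The next lowest, RPL7B in early log, stood at 298 ± 6.83, and no early log library of RPL15B exceeded 33.1.

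The large subunit genes together took up a smaller share of the counts in mid log than in either of the other subphases. They held 20.3%, 19.7% and 13.4% of the counts on genes in early log replicates 1, 2 and 3, then 13.1%, 12.4% and 12.9% in mid log and 16.4%, 15.7% and 16.4% in late log. Early log replicate 3 lay next to the mid log libraries, below the late log libraries. The log2 ratio of the mean share was -0.48 from early to mid log and 0.34 from mid to late log, and neither pair of groups overlapped (exact permutation test, two-sided, p = 0.1, the smallest that 3 against 3 libraries allows). From early to late log it was -0.14, with overlapping groups (exact permutation test, p = 0.4). When early log replicate 3 was left out the log2 ratio was -0.31 and both early log libraries lay above late log, and without early log replicate 1 or 2 it was -0.03 or -0.06. When CPM were summed instead, the log2 ratios became 0.34 (p = 0.3), 0.16 (p = 0.3) and 0.50 (p = 0.1) in the same exact test, so the sign of the first and the last depends on how libraries are scaled. The TMM factors ranged from 0.70 to 1.47, and all 3 early log libraries had a factor of 1.36 or more. Total mRNA per cell was not measured, so fewer cells of a kind and less RNA per cell cannot be told apart and all levels are relative.

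**Figure D1:**
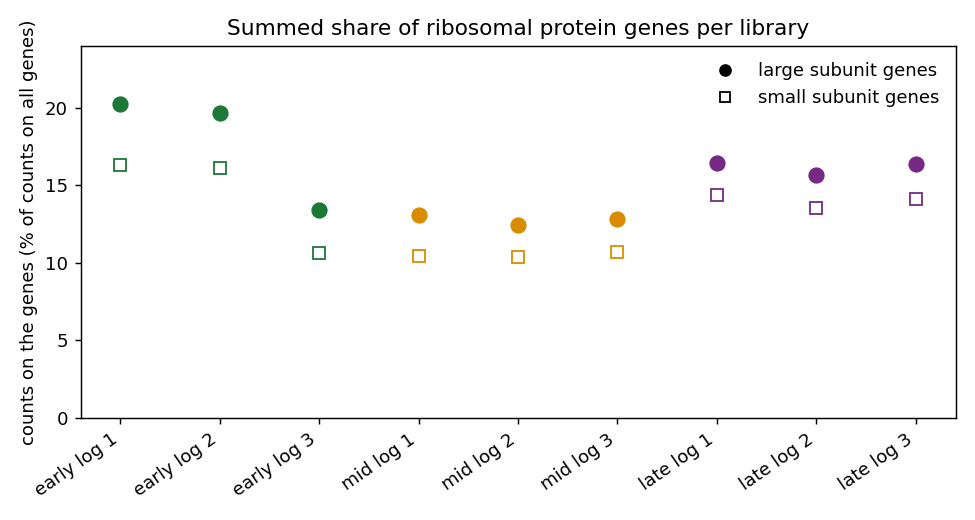
Percent of the counts on all genes that fell on large subunit (filled circles) and small subunit (open squares) ribosomal protein genes, one point per library and subphase in colour. Early log replicate 3, at 13.4% for the large subunit, lies with the mid log libraries (12.4% to 13.1%), and late log lies between 15.7% and 16.4%; scaled by TMM, the early to mid log difference has the opposite sign.

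Within the ribosome the balance between the subunits moved less than the total. Counts on large subunit genes were 1.22 to 1.26 times those on the 57 small subunit genes in early log, 1.20 to 1.25 times in mid log and 1.14 to 1.16 times in late log. This ratio needs no scaling between libraries. The late log libraries lay below all libraries of the other subphases, with a log2 ratio of -0.10 against early log and -0.08 against mid log (exact permutation test, p = 0.1 for each).

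All 81 genes passed the filter on low counts in each comparison, and the lowest count of any of them was 29 reads. Between early and mid log 7 large subunit genes rose and 10 fell at an adjusted p under 0.05 with edgeR, beside 20.7% and 24.2% of all 5951 genes tested. The shares of the large subunit genes were thus lower than the background in both directions. Their median log2 fold change was 0.05 (range -2.18 to 1.48), and that of all genes -0.12. The libraries of the 2 subphases did not overlap for 10 genes that were higher and 11 that were lower in mid log, against 27.2% and 34.3% of all genes. Without mid log replicate 1, 23 rose and 25 fell (28.4% and 30.9%, beside 33.6% and 42.8% of all genes), and all 17 genes called with 6 libraries were called again. Without early log replicate 3, 3 rose and 13 fell (beside 16.6% and 20.2% of all genes), and 12 of the 17 calls held, those of RPL4A, RPL4B, RPL11B, RPL23A and RPP0 being lost. Without both libraries 37 rose and 36 fell (45.7% and 44.4%), close to the 41.8% and 47.8% of all genes. Leaving out any of early log replicates 1 and 2 or mid log replicates 2 and 3 left 0 calls, among the 81 genes as among all genes.

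Between mid and late log no large subunit gene passed the test with edgeR in either direction, when 0.307% of the 5865 genes tested rose and 0.153% fell. At an unadjusted p under 0.05 there were 23 large subunit genes (28.4%, beside 19.8% of all genes). DESeq2 called 6 (7.41%), all higher in late log, beside 2.45% of all genes higher and 2.64% lower. The median was 0.21 (range -0.95 to 1.29), with -0.11 for all genes. Late log libraries lay above all mid log libraries for 37 of the 81 genes and below them for 1, RPL3, while 18.9% and 9.39% of all genes did so. Without mid log replicate 1, 43 genes rose and 17 fell (53.1% and 21.0%, beside 28.9% and 27.2% of all genes).

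From early to late log 28 large subunit genes rose and 12 fell, beside 33% and 39.2% of the 5954 genes tested. The share that rose was close to the background and the share that fell was below it. The median was 0.32 (range -2.63 to 1.58), with -0.08 for all genes, and the libraries did not overlap for 45 higher and 9 lower genes, against 37.9% and 39.2% of all genes. The split between the directions depends on the scaling. By library totals 10 rose and 30 fell with a median of -0.27 (12.3% and 37.0%, beside 14.1% and 55.3% of all genes). After removal of the trend with coding length 11 rose and 28 fell (13.6% and 34.6%, beside 37.8% and 33.4% of all genes). After removal of the trend with GC content 18 rose and 16 fell (22.2% and 19.8%, beside 37.1% and 34.0% of all genes). Library totals also moved the median of all genes by -0.59, and relative to all genes the large subunit median was then 0.41, against 0.40 with TMM. It was -0.08 relative to all genes after removal of the length trend and 0.05 after removal of the GC trend. With TMM, DESeq2 size factors and library totals alike, 10 genes were called higher (RPL2A, RPL18B, RPL23A, RPL23B, RPL26A, RPL33A, RPL33B, RPL37A, RPL37B and RPL43A) and 9 lower (RPL7B, RPL11B, RPL13A, RPL15B, RPL19A, RPL19B, RPL24B, RPL31A and RPL35B). All 9 lower genes, but only RPL18B, RPL23A, RPL23B and RPL26A among the higher ones, were also called after removal of either trend. The same scalings moved the early to mid log split from 7 higher and 10 lower to 1 and 25 by library totals (1.23% and 30.9%, beside 3.63% and 35.7% of all genes). There the median of all genes moved by -0.77 and the large subunit median was 0.15 above it. After removal of the length trend that median was at -0.09 relative to all genes, and after removal of the GC trend at -0.20.

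Early log replicate 3 shared its run with the late log libraries. Against that library alone, late log was higher for 69 of the 81 genes and lower for 12, with a median log2 ratio of 0.90. For the 4923 genes above 1 CPM in every library that median was 0.01. With the run as a term in the edgeR fit 37 large subunit genes rose and 0 fell (45.7% and 0%, beside 12.04% and 12.11% of all genes). That contrast has early log replicate 3 as its only early log library, because run 1 holds no late log library, and it assumes that this library varies like the others. Of the 40 genes called with 6 libraries 26 were called in the same direction with the run as a term, and none of the 12 that fell was. Without early log replicate 3, 40 rose and 26 fell (49.4% and 32.1%, beside 38.4% and 42.4% of all genes), and all 40 genes were called in the same direction again.

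**Figure D2:**
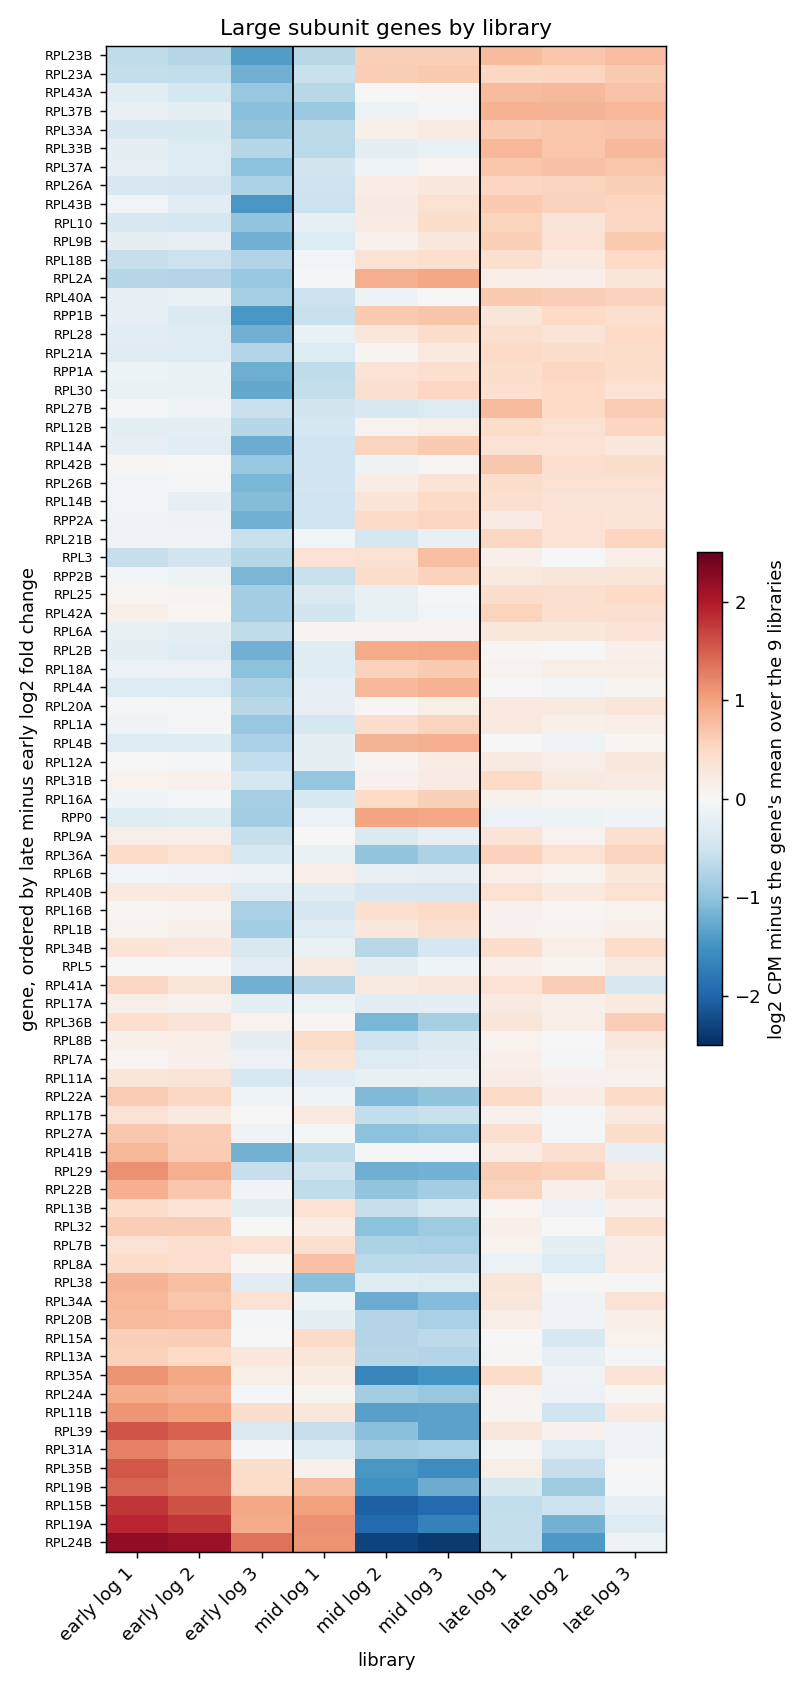
Colour shows log2 CPM of each of the 81 genes (rows) in each of the 9 libraries (columns) minus the mean of that gene, with genes ordered by the fold change from early (left) to late log (right). Mid log replicate 1 resembles the early log libraries in the lowest rows, and early log replicate 3 is paler or bluer than its replicates in nearly all rows; under other scalings than TMM each column shifts as a whole.

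The stalk is the flexible arm of the large subunit that recruits translation factors: P0, encoded by RPP0, sits at its base and carries the acidic P1 and P2 proteins of RPP1A, RPP1B, RPP2A and RPP2B. RPP0 (chrXII:805887-806825, forward strand, without intron) stood at 7492, 7699 and 5057 CPM in early log, 8338, 18277 and 18146 CPM in mid log and 8423, 8527 and 8723 CPM in late log. Mid log replicates 2 and 3 were higher than any other library, while mid log replicate 1 lay close to late log. RPP0 rose from early to mid log, with a log2 fold change of 1.16 ± 0.40 (SE, adjusted p = 0.0494), and from mid to late log its log2 fold change of -0.95 ± 0.35 (SE, adjusted p = 0.199) was the most negative of the 81 genes without passing the test. Without mid log replicate 1 those values were 1.47 (adjusted p = 0.00264) and -1.26 (adjusted p = 1.13e-06). The rise was not called without early log replicate 3 (0.98, adjusted p = 0.116), by library totals (0.29, adjusted p = 0.374) or after removal of the GC trend (0.90, adjusted p = 0.132).

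The late log levels of RPP1A lay close to those of mid log replicates 2 and 3, and those of RPP1B lay below them. RPP1A was at 2989, 2886 and 1397 CPM in early log, 2088, 4133 and 4363 CPM in mid log and 4429, 4648 and 4415 CPM in late log. RPP1B was at 2517, 2245 and 1058 CPM in early log, 1956, 4546 and 4689 CPM in mid log and 3566, 4066 and 3871 CPM in late log. In both genes early log replicate 3 was the lowest library. From early to late log RPP1A rose by 0.84 ± 0.28 (SE, adjusted p = 0.0287) and RPP1B by 0.93 ± 0.30 (SE, adjusted p = 0.0266) on the log2 scale. These values were 0.56 (adjusted p = 4.2e-05) and 0.64 (adjusted p = 0.000109) without early log replicate 3. After removal of the GC trend neither rise was called, at 0.27 for RPP1A (adjusted p = 0.497) and 0.20 for RPP1B (adjusted p = 0.647). Nor was that of RPP1A after removal of the length trend (0.05, adjusted p = 0.876). RPP1B, of the same coding length of 321 bases, then had log2 fold changes of 0.73 from early to mid log and -0.61 from mid to late log. RPP2A (2554, 2516 and 1201 CPM in early log and 3189, 3552 and 3492 CPM in late log) did not pass that test, with 0.65 ± 0.28 (SE, adjusted p = 0.0694). RPP2B (2715, 2592 and 1289 and 3376, 3500.0 and 3506 CPM) did not either, with 0.60 ± 0.27 (SE, adjusted p = 0.0805). By library totals the early to late log2 fold changes of the 4 acidic protein genes were 0.26 for RPP1A, 0.35 for RPP1B, 0.07 for RPP2A and 0.02 for RPP2B.

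Among the single-copy genes, 4 of the genes named for their roles rose from early to late log with TMM scaling. RPL3, which encodes a protein reaching towards the peptidyl transferase centre, was at 4806, 5125 and 4341 CPM in early log, 9189, 9390.0 and 12066 CPM in mid log and 7803, 7143 and 8009 CPM in late log. All mid and late log libraries lay above all early log libraries. It rose from early to mid log by 1.12 ± 0.27 (SE, adjusted p = 0.0181) and from early to late log by 0.63 ± 0.14 (SE, adjusted p = 0.00452) on the log2 scale, though the early to mid log rise was not called by library totals (0.30, adjusted p = 0.2) or after removal of the GC trend (0.81, adjusted p = 0.0664). Late log lay below mid log in every library without passing the test, at -0.55 ± 0.21 (SE, adjusted p = 0.214). RPL10, whose protein joins the subunit late, in the cytoplasm, was at 4213, 4082 and 2789 CPM in early log, 4795, 6365 and 7478 CPM in mid log and 8198, 6929.7 and 7985 CPM in late log. It rose from early to late log by 1.01 ± 0.19 (SE, adjusted p = 0.00252). RPL28, in which resistance to cycloheximide arises by mutation, was at 4045, 3940.3 and 2089 CPM in early log, 4317, 5850.2 and 6513 CPM in mid log and 6396, 6009 and 6859 CPM in late log, and it rose from early to late log by 0.88 ± 0.26 (SE, adjusted p = 0.0163). RPL30, whose protein binds its own transcript and blocks its splicing, was at 2773, 2772 and 1281 CPM in early log, 2035, 4082 and 4418 CPM in mid log and 4136, 4363 and 3953 CPM in late log. Its early to late change of 0.82 ± 0.29 (SE, adjusted p = 0.0361) passed the test, while early log replicate 3 was again the lowest library. All 4 genes were also called without early log replicate 3, at 0.57 for RPL3, 0.84 for RPL10, 0.63 for RPL28 and 0.53 for RPL30. By library totals the early to late log2 fold changes were 0.04 for RPL3, 0.42 for RPL10, 0.30 for RPL28 and 0.23 for RPL30. None of the 4 was called higher with TMM, DESeq2 size factors and library totals alike. After removal of the GC trend RPL10 was called (0.67, adjusted p = 0.0311). RPL3 (0.25, adjusted p = 0.218), RPL28 (0.52, adjusted p = 0.146) and RPL30 (0.74, adjusted p = 0.0583) were not. After removal of the length trend RPL30 had 0.42 from early to mid log and -0.42 from mid to late log. The same values were 1.38 and -0.47 for RPL3, 0.96 and 0.02 for RPL10, and 0.68 and -0.29 for RPL28.

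The other single-copy genes named here did not pass the test between early and late log. RPL5, whose protein enters the subunit in a complex with the smallest rRNA, was at 4668, 4757 and 3887 CPM in early log, 5486, 3987 and 4392 CPM in mid log and 5175, 4952 and 5535 CPM in late log, with log2 fold changes of 0.07 ± 0.26 (SE, adjusted p = 0.828) and 0.18 ± 0.14 (SE, adjusted p = 0.275) in mid and late against early log. RPL25, which lies near the exit of the tunnel and contacts the signal recognition particle, was at 3270.3, 3288 and 1740.1 CPM in early log, 2457, 2762 and 3067 CPM in mid log and 4255, 4172 and 4439 CPM in late log, with 0.58 ± 0.25 (SE, adjusted p = 0.0668) from early to late log. RPL39, encoding a very small protein of the tunnel exit, was at 1389, 1304 and 366 CPM in early log, 315, 227 and 185 CPM in mid log and 568, 507 and 441 CPM in late log. Early log replicates 1 and 2 stood far above all other libraries and early log replicate 3 did not. RPL39 fell from early to mid log by 2.06 ± 0.51 on the log2 scale (adjusted p = 0.0198), and by 2.47 without early log replicate 3 (adjusted p = 0.00831). RPL29, for a small protein that cells can do without, was at 1018, 862 and 307 CPM in early log, 326, 199 and 203 CPM in mid log and 705, 682 and 542 CPM in late log. It fell from early to mid log by 1.58 ± 0.46 (adjusted p = 0.0305), and its log2 fold change of 1.29 ± 0.24 (SE, adjusted p = 0.0666) from mid to late log was the highest of the 81 genes without passing the test.

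Short genes had higher log2 fold changes from mid to late log than long ones. Over the 81 genes the log2 fold change from mid to late log ran against the coding length with a Pearson r of -0.59 and a Spearman rho of -0.68. This is a description across genes that share the same 6 libraries and are not independent. The 33 genes with a coding length under 400 bases had a median of 0.56 (range -0.11 to 1.29), and the 48 longer genes one of 0.07 (range -0.95 to 0.91). The most positive values after RPL29 were those of RPL22B (1.05 ± 0.18, SE, adjusted p = 0.0597) and RPL37B (1.01 ± 0.29, SE, adjusted p = 0.14). The most negative after RPP0 were those of RPL4B (-0.76 ± 0.34, SE, adjusted p = 0.273), whose protein reaches into the tunnel, and RPL2B (-0.72 ± 0.36, SE, adjusted p = 0.318), whose protein borders the catalytic centre. After the trend with length was removed from all genes the median of the large subunit genes moved from 0.21 to -0.10, level with the -0.11 of all genes. The same r was 0.28 from early to mid log and -0.05 from early to late log, and for GC content it was 0.41, -0.42 and 0.21 from early to mid, mid to late and early to late log.

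**Figure D3:**
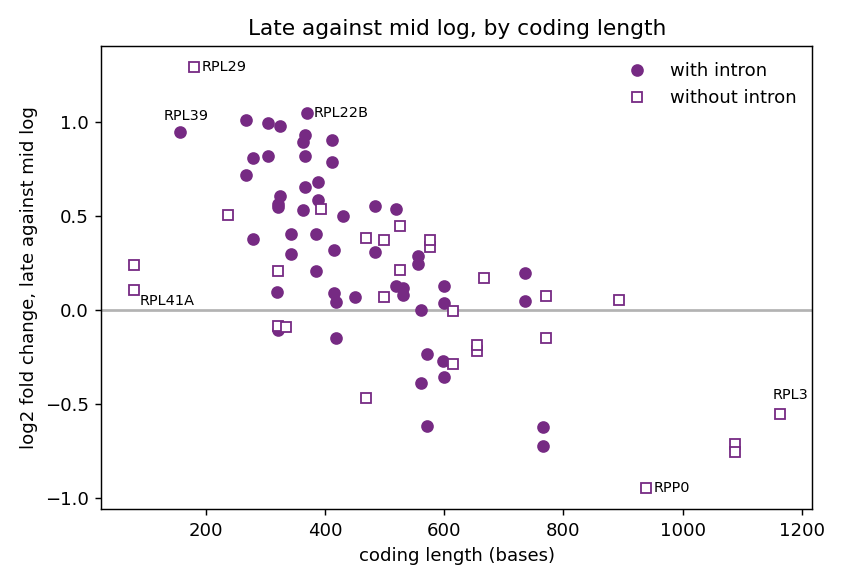
Log2 fold change from mid to late log (TMM scaling) of each of the 81 genes against its coding length in bases, with genes that have an intron as filled circles and those without as open squares. Values run from 1.29 for RPL29 to -0.95 for RPP0; after removal of the trend with length over all genes the median of the 81 genes is -0.10 rather than 0.21.

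The 3 largest rises from early to late log were those of both RPL23 copies and RPL43A. RPL23 encodes a protein on the face that meets the small subunit, where the factor Tif6 holds the subunits apart. RPL23A (chrII:59822-60739) was at 1521, 1503 and 995 CPM in early log, 1554, 3533 and 3595 CPM in mid log and 3301, 3315 and 3621 CPM in late log. RPL23B (chrV:396769-397653) was at 2042, 1939 and 1215 CPM in early log, 1972, 4849.8 and 4793 CPM in mid log and 5515, 5153 and 5424 CPM in late log. For both, mid log replicate 1 lay close to early log replicates 1 and 2, and mid log replicates 2 and 3 lay close to late log. RPL23A rose from early to late log by 1.30 ± 0.19 (SE, adjusted p = 0.000697) and RPL23B by 1.58 ± 0.21 (SE, adjusted p = 0.000483). Against early log replicate 3 alone, of the same run, the log2 ratios were 1.78 for RPL23A and 2.14 for RPL23B. RPL43A was at 2046, 1835 and 1276 CPM in early log, 1532, 2455 and 2568 CPM in mid log and 4257, 4318 and 4080.1 CPM in late log, and it rose by 1.24 ± 0.19 (SE, adjusted p = 0.000932), though without a call after removal of the length trend (0.35, adjusted p = 0.1).

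The 3 largest falls from early to late log were those of RPL24B, RPL19A and RPL15B. RPL24 is added in the cytoplasm in place of its relative Rlp24 and forms a bridge to the small subunit. RPL24B (chrVII:787312-787779) was at 1400.0, 1344 and 774 CPM in early log, 657, 60.9 and 57.2 CPM in mid log and 200.3, 111 and 278 CPM in late log. All early log libraries and mid log replicate 1 lay above all other libraries. RPL24B fell by 2.63 ± 0.37 (adjusted p = 0.000627) from early to late log. RPL19A, for a protein that also bridges the subunits, was at 1492, 1381 and 758 CPM in early log, 879, 104 and 123 CPM in mid log and 265, 176 and 319 CPM in late log. It fell by 2.31 ± 0.32 (adjusted p = 0.000527). RPL15B, the scarce copy of a protein buried in the rRNA, was at 20.3, 17.6 and 11.5 CPM in early log, 11.9, 1.43 and 1.52 CPM in mid log and 3.84, 4.03 and 5.09 CPM in late log, and it fell by 1.98 ± 0.25 (adjusted p = 0.000399). With the run as a term, which leaves early log replicate 3 as the only early library of that run, the log2 fold changes were -1.98 for RPL24B (adjusted p = 0.217), -1.58 for RPL19A (adjusted p = 0.245) and -1.41 for RPL15B (adjusted p = 0.291).

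From early to mid log the most positive changes were those of RPL2A and RPL2B and of RPL23B. RPL2A was at 1589, 1559 and 1351 CPM in early log, 2530.5, 4862 and 5059 CPM in mid log and 2895, 2826 and 3210.2 CPM in late log, and it rose by 1.48 ± 0.33 (SE, adjusted p = 0.0155), a call that held by library totals but not after removal of the GC trend (0.89, adjusted p = 0.0764). RPL2B was at 4283, 4076 and 2197 CPM in early log, 4103, 9601 and 9662 CPM in mid log and 5203, 4993 and 5498 CPM in late log and did not pass the test, at 1.16 ± 0.44 (SE, adjusted p = 0.0655), nor did RPL23B, at 1.18 ± 0.42 (SE, adjusted p = 0.0532). The most negative were RPL24B, at -2.18 ± 0.96 (SE, adjusted p = 0.0986), and RPL35B besides RPL39. RPL35B, for a protein at the tunnel exit, was at 190.1, 167 and 88.0 CPM in early log, 70.3, 23.6 and 21.8 CPM in mid log and 71.4, 43.6 and 64.3 CPM in late log and fell by 1.93 ± 0.53 (adjusted p = 0.0257). Without mid log replicate 1 the value of RPL24B became -4.27 (adjusted p = 0.000229) and that library held 657 CPM.

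The copies of a pair were compared within each library, as the share of the A copy in the sum of both, so that no scaling between libraries enters. Each count was divided by the number of 75-base windows of the gene that occur nowhere else in the genome, because reads that match both copies are not counted by default. That number is equal for both copies in all pairs but RPL16 and RPL22, so the division cancels elsewhere. Raw counts or windows of other lengths moved no share by more than 0.104 percentage points. The coding sequences of the copies were 79.1% (RPL22) to 99.4% (RPL1) identical, and in 5 pairs (RPL1, RPL4, RPL7, RPL11 and RPL35) fewer than 70% of the windows were unique, so their shares rest on part of the gene. The A copy held more than 50% in 18 pairs in early log, 19 in mid log and 18 in late log, and the only pair whose mean crossed 50% was RPL41.

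Most pairs were uneven. RPL15 and RPL22 had the highest mean A shares and RPL8 the lowest in every subphase. The highest A shares in early log were those of RPL15 (99.2% ± 0.0700, SD, n = 3), RPL22 (91.8% ± 0.681) and RPL18 (90.6% ± 2.51). In late log they were 99.7% ± 0.0445, 92.7% ± 0.481 and 87.8% ± 1.03, when RPL7 lay above RPL18 with 88.6%. The lowest were those of RPL8 (19.2% ± 0.463), RPL36 (22.2% ± 3.55) and RPL2 (30.9% ± 6.19), and in late log 14.4% ± 1.11, 25.3% ± 2.20 and 36.3% ± 0.564. RPL34 (25.0%), RPL19, RPL13, RPL16 and RPL26 then lay below RPL2. In RPL2 early log replicate 3 held 38.1%, above early log replicates 1 and 2 with 27.1% and 27.7%. RPL4, whose copies are 98.9% identical, was the most even in early log, at 49.0% ± 0.279, and in mid log, at 49.1% ± 0.871. In late log it was at 49.7% ± 0.267, beside 49.8% for RPL41.

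**Figure D4:**
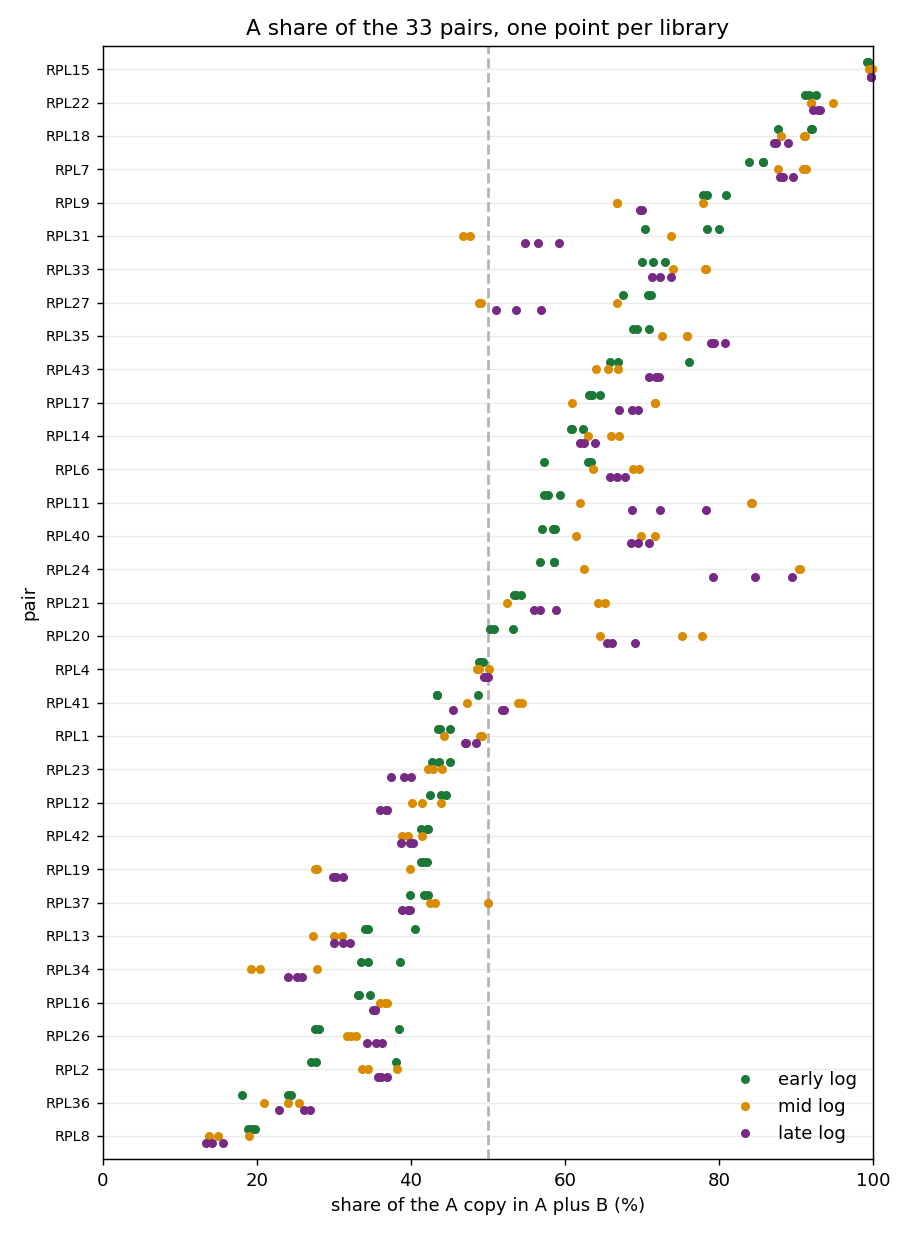
Share of the A copy in the counts of both copies (percent, per unique window), one point per library, for each of the 33 pairs ordered by the early log mean, with the dashed line at 50%. RPL24, RPL11 and RPL20 move towards the A copy from early to late log and RPL31 and RPL27 towards the B copy, and mid log replicate 1 lies apart from the other mid log points in these pairs.

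The A share was separated between early and late log, with no overlap of libraries, in 24 of 33 pairs (13 higher and 11 lower in late log), from early to mid log in 17 and from mid to late log in 8. For the 24 pairs of small subunit genes, counted in the same way without the division by windows, the numbers were 9, 11 and 9. The median size of the early to late change was 4.67 percentage points in large subunit pairs and 2.06 in small subunit pairs, and the difference between the subunits was not tested. Without mid log replicate 1 26 large subunit pairs were separated from early to mid log and 28 from mid to late log. That library lay nearer to the early log mean than to the mean of mid log replicates 2 and 3 in 24 of the 33 pairs.

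RPL24 had the largest change. Its A share was 58.5%, 58.6% and 56.8% in early log, 62.5%, 90.3% and 90.5% in mid log and 84.6%, 89.4% and 79.2% in late log. Mid log replicate 1 lay near early log, and the other 5 libraries of mid and late log were at 79.2% or more. The late log mean was higher by 26.5 percentage points than the early log mean (exact permutation test, two-sided, p = 0.1). RPL24A (chrVII:437467-437934) itself was at 1975, 1900.0 and 1017 CPM in early log, 1094, 568 and 542 CPM in mid log and 1102, 941 and 1057 CPM in late log and fell by 0.71 ± 0.25 on the log2 scale (adjusted p = 0.0344), less than RPL24B. Within run 3 the A share went from 56.8% in early log replicate 3 to a late log mean of 84.4%. Against that early log library alone the log2 ratios were 0.02 for RPL24A and -1.98 for RPL24B, so the fall of RPL24A was not seen within the run.

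In RPL31, whose protein sits at the tunnel exit, and in RPL27 the A share was lower in late log. The A share of RPL31 was 80.0%, 78.4% and 70.4% in early log, 73.8%, 47.6% and 46.8% in mid log and 56.5%, 54.8% and 59.3% in late log. Its late log libraries were all below its early log libraries, and mid log replicate 1 stood with early log. The means differed by -19.4 percentage points (exact permutation test, p = 0.1), and by -13.5 within run 3. RPL31A (2019, 1839 and 828 CPM in early log and 860.0, 666 and 792 CPM in late log) fell by 1.07 ± 0.32 (adjusted p = 0.0181). RPL31B was at 503, 506 and 348 CPM in early log and 663, 549 and 544 CPM in late log, with 0.32 ± 0.17 (SE, adjusted p = 0.135). Against early log replicate 3 alone, of the same run, the log2 ratios were -0.10 for RPL31A and 0.75 for RPL31B. The A share of RPL27 was 70.8%, 71.1% and 67.5% in early log, 66.7%, 48.9% and 49.0% in mid log and 53.6%, 51.0% and 56.8% in late log, a difference of -16.0 percentage points from early to late log (exact permutation test, p = 0.1) and of -13.7 within run 3. Here RPL27B was the copy that passed the test: it stood at 979.7, 931 and 681 CPM in early log, 727, 769.6 and 792 CPM in mid log and 1738, 1409.8 and 1551 CPM in late log and rose from early to late log by 0.80 ± 0.17 (SE, adjusted p = 0.00401), when RPL27A had -0.20 ± 0.23 (SE, adjusted p = 0.467). RPL27B was also called after removal of the GC trend (0.58, adjusted p = 0.0272). It was not among the genes called higher with TMM, DESeq2 size factors and library totals alike.

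In RPL20 and RPL11 the A share was higher in late log. The A share of RPL20 was 50.2%, 50.7% and 53.3% in early log, 64.5%, 75.2% and 77.7% in mid log and 65.4%, 69.0% and 66.2% in late log. All mid and late log libraries lay above all early log libraries, by 15.5 percentage points in the late log mean (exact permutation test, p = 0.1) and by 13.6 within run 3. RPL20A was at 2294, 2307 and 1450.1 CPM in early log, 2031, 2375 and 2594 CPM in mid log and 2757, 2750.2 and 2881 CPM in late log, and RPL20B at 2276, 2241 and 1271 CPM in early log, 1119, 784 and 743 CPM in mid log and 1459, 1234 and 1474 CPM in late log. RPL20B fell from early to mid log by 1.12 ± 0.32 (adjusted p = 0.0276), and RPL20A had 0.22 ± 0.28 (SE, adjusted p = 0.517). RPL11, whose protein enters the subunit together with that of RPL5, had an A share of 57.8%, 59.4% and 57.2% in early log, 62.0%, 84.3% and 84.1% in mid log and 72.3%, 78.3% and 68.6% in late log. Its late log mean was 14.9 percentage points above the early log mean (exact permutation test, p = 0.1). RPL11B fell from early to late log by 0.97 ± 0.24 (adjusted p = 0.00793), and RPL11A had -0.03 ± 0.20 (SE, adjusted p = 0.906). Against early log replicate 3 alone, of the same run, the log2 ratios were -0.47 for RPL11B and 0.53 for RPL11A.

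Most copies had log2 fold changes of the same sign. This was so in 29 of 33 pairs from early to mid log, 30 from mid to late log and 25 from early to late log. Both copies passed the test in 9 pairs from early to late log and only 1 of them in 16, and from early to mid log in 2 and 9 pairs. The median size of the difference between the log2 fold changes of the copies was 0.32, 0.18 and 0.37 from early to mid, mid to late and early to late log, beside a standard deviation of 0.83, 0.47 and 0.77 among the A copies of different pairs. The 33 A copies and the 33 B copies each had 11 genes that rose and 6 that fell from early to late log, with medians of 0.32 and 0.21. Of all genes 33% rose and 39.2% fell in that comparison.

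**Figure D5:**
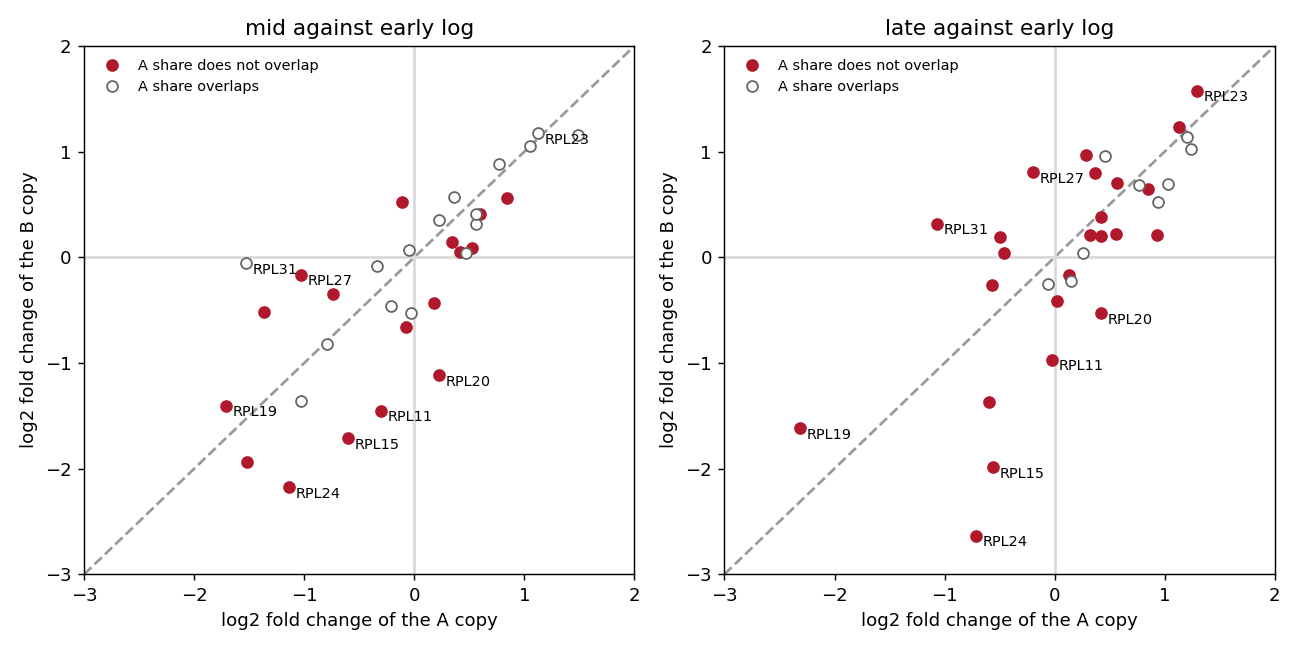
Log2 fold change (TMM scaling) of the B copy against that of the A copy for the 33 pairs, from early to mid log (left) and early to late log (right), with red points where the A share of the libraries does not overlap and the dashed line where both copies change alike. RPL24, RPL11, RPL15 and RPL20 lie below the line from early to late log, and RPL31, RPL27 and RPL19 above it; another scaling moves all points along the line, so signs near 0 can flip.

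RPL22 encodes a protein that in yeast limits the splicing of the RPL22B transcript. RPL22A was at 1763, 1637 and 1074 CPM in early log, 1065, 533 and 570.4 CPM in mid log and 1584, 1294 and 1581 CPM in late log, and RPL22B at 171, 149 and 87.0 CPM in early log, 59.6, 47.0 and 50.8 CPM in mid log and 136, 102 and 118 CPM in late log. Both fell from early to mid log, RPL22A by 1.03 ± 0.35 (adjusted p = 0.048) and RPL22B by 1.36 ± 0.30 (adjusted p = 0.0153), and the A share overlapped in every comparison. RPL22A was not called after removal of the length trend (-1.10, adjusted p = 0.0612), nor RPL22B after removal of the GC trend (-0.80, adjusted p = 0.0503). Each was called after removal of the other trend. RPL40A and RPL40B encode a ribosomal protein made as a fusion to ubiquitin. In contrast to RPL22, the A share of RPL40 did not overlap between early and late log, at 58.5%, 58.7% and 56.9% in early log, 61.4%, 69.9% and 71.7% in mid log and 69.5%, 70.8% and 68.6% in late log, with a late log mean 11.6 percentage points above early log (exact permutation test, p = 0.1). RPL40A rose from early to late log by 0.93 ± 0.20 (SE, adjusted p = 0.00396), and RPL40B had 0.21 ± 0.17 (SE, adjusted p = 0.294). RPL40A was not among the genes called higher with TMM, DESeq2 size factors and library totals alike. After removal of the GC trend both copies were called, at 1.32 for RPL40A (adjusted p = 0.000635) and 0.54 for RPL40B (adjusted p = 0.0203).

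RPL41A and RPL41B are the shortest genes of the set and lie on the same chromosome, RPL41A at chrIV:130407-130484 and RPL41B at chrIV:221724-221801, both on the reverse strand and without an intron. Their coding sequences of 78 bases (R64, from RefSeq) are shown because 1 base, in capitals, is all that tells the copies apart there, while the bases around them differ.
RPL41A: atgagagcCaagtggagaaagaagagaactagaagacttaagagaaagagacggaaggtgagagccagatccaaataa
RPL41B: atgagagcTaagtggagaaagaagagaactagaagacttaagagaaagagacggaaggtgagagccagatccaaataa
RPL41A was at 102, 88.6 and 31.1 CPM in early log, 43.2, 84.8 and 87.0 CPM in mid log and 91.5, 109 and 54.0 CPM in late log. RPL41B was at 134, 116 and 32.8 CPM in early log, 48.1, 72.5 and 72.9 CPM in mid log and 85.0, 100.5 and 65.0 CPM in late log. In both genes early log replicate 3 was the lowest library, and neither gene passed the test in any comparison. The A share was 43.4%, 43.4% and 48.7% in early log, 47.3%, 53.9% and 54.4% in mid log and 51.8%, 52.1% and 45.4% in late log, and its groups overlapped throughout.

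Promoters were searched for the core of the Rap1 site because Rap1 is the factor that marks ribosomal protein genes in yeast. The letters ACCCNNACA, on either strand of the 500 bases before the start codon, were present in 36 of 81 large subunit genes (44.4%), in 31.6% of small subunit genes and in 5.48% of all 5987 promoters of that length. The looser ACCCNNNCA, which includes every match of the first, was present in 50.6%, 45.6% and 13.2%. Other letters were near or below their background: AAAATTTT in 16.0% against 12.4% of all promoters, GATGAG in 22.2% against 28.3%, and the Abf1 site in 8.64% against 18.2%. These are matches of letters, not measured binding. The 36 genes with the Rap1 core had a median log2 fold change of 0.24 from early to late log (12 rose and 5 fell), and the 45 without it 0.36 (16 rose and 7 fell). Of all genes 33% rose and 39.2% fell in that comparison.

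The stretches with the core are printed for 3 pairs in which both copies hold it: RPL23, the pair with the largest rises, RPL20, in which the A share was higher in mid and late log, and RPL35, in which both copies were among the lowest in mid log. That level of RPL35 was not corrected for shared reads, and only 47.8% of its 75-base windows were unique. Each is read 5′ to 3′ on the strand of the gene, from R64, with the core in capitals and 20 bases on either side.
RPL23A: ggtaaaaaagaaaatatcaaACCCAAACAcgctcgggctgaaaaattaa
RPL23B: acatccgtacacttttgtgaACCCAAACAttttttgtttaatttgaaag
RPL20A: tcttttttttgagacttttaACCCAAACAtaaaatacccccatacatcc
RPL20B: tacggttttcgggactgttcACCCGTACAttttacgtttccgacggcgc
RPL35A: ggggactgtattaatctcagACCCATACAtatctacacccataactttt
RPL35B: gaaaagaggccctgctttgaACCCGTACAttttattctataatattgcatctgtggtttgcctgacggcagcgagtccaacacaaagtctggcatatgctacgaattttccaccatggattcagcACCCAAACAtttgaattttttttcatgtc
They lie at chrII:60899-60947, chrV:396379-396427, chrXIII:754571-754619, chrXV:901522-901570, chrIV:117352-117400 and chrIV:217296-217449. RPL35B alone of these holds 2 cores. RPL24A, RPL24B, RPL31A and RPL31B, from the pairs with the largest changes of the A share, hold no match in this window. Among the 8 pairs with the core in both copies 5 had an A share that did not overlap between early and late log, among the 16 with it in 1 copy 11, and among the 9 with it in neither 8.

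Most regulators of these genes had lower levels in late log than in early log. Of 13 genes on a list of regulators 0 rose and 12 fell from early to late log, with a median of -2.14, beside 33% and 39.2% of all genes and a median of -0.08. From early to mid log 0 rose and 6 fell, beside 20.7% and 24.2% of all genes. From mid to late log 0 passed edgeR's test or DESeq2's in either direction, and 2 had an unadjusted p under 0.05 by either tool. Scaled by library totals 0 rose and 13 fell from early to late log, beside 14.1% and 55.3% of all genes. After removal of the length trend 0 rose and 8 fell, beside 37.8% and 33.4% of all genes. Without early log replicate 3 again 0 rose and 12 fell, beside 38.4% and 42.4% of all genes. With the run as a term, where that library is the only one of early log, the median of the list was -1.29 rather than -2.14. In that fit IFH1 was at -0.66 (adjusted p = 0.0804) and ABF1 at -0.88 (adjusted p = 0.0735). RAP1 fell by 1.22 ± 0.13 on the log2 scale from early to late log (adjusted p = 0.000188). Larger falls were those of FHL1, which binds with Rap1 at these promoters, from 9.65 ± 4.38 to 1.24 ± 0.283 CPM (SD, n = 3), and of its coactivator IFH1, from 18.6 ± 8.12 to 5.93 ± 0.177 CPM. The activator SFP1 fell by 2.14 ± 0.15 (adjusted p = 5.18e-05) and HMO1, which binds many of these promoters, by 1.32 ± 0.20 (adjusted p = 0.000778). The list also holds repressors, and they fell too: STB3 by 2.30, DOT6 by 2.68 and TOD6 by 3.46, the largest of the list. The general factors REB1 and ABF1 fell by 3.09 and 2.77, and the kinase genes SCH9 and TOR1 by 0.75 and 0.40. CRF1, a corepressor that competes with Ifh1, did not pass the test (-0.09 ± 0.22, SE, adjusted p = 0.725), at 1.31 ± 0.127 CPM in early log and 1.27 ± 0.189 CPM in late log.

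Genes that escort single large subunit proteins or mature the subunit were mostly lower as well. Of 18 such genes 2 rose and 13 fell from early to late log (median -0.87), beside 33% and 39.2% of all genes. From early to mid log 2 rose and 4 fell, beside 20.7% and 24.2% of all genes. By library totals 0 rose and 15 fell from early to late log, beside 14.1% and 55.3% of all genes. After removal of the GC trend 2 rose and 9 fell, beside 37.1% and 34.0% of all genes. Without early log replicate 3, 3 rose and 15 fell (median -1.10), beside 38.4% and 42.4% of all genes. With the run as a term, where that library is the only one of early log, the median of the list was -0.46 rather than -0.87. RLP24 was then at -2.86. In that fit NMD3 was at -2.38 (adjusted p = 0.108), LSG1 at -2.59 (adjusted p = 0.107), MRT4 at -0.18 (adjusted p = 0.498) and RLP7 at -0.21 (adjusted p = 0.52). From mid to late log 0 passed edgeR's test or DESeq2's, and 4 had an unadjusted p under 0.05 by either tool. RLP24, the placeholder for Rpl24 in the nucleus, had the largest fall, from 92.7 ± 39.6 CPM in early log to 6.48 ± 1.77 CPM in late log (-3.89 ± 0.40, SE, adjusted p = 0.000166). The export adaptor NMD3 (-3.16 ± 0.44, SE, adjusted p = 0.000571) and LSG1, the GTPase that releases it (-2.82 ± 0.27, SE, adjusted p = 0.000118), fell too. So did the cytoplasmic factors REI1 (-2.62) and ALB1 (-2.54), SDO1 (-2.18) and its partner GTPase RIA1 (-0.55), which together release Tif6, and the placeholders MRT4 for P0 (-0.75) and RLP7, a relative of Rpl7 (-0.99). Of the chaperones, ACL4 for Rpl4 (-1.91), RRB1 for Rpl3 (-1.61), SYO1 for Rpl5 and Rpl11 (-0.69) and BCP1 for Rpl23 (-0.65) fell from early to late log. SQT1, the chaperone of Rpl10, rose from early to mid log (1.15 ± 0.24, SE, adjusted p = 0.0144) and stood 0.36 above early log in late log (adjusted p = 0.0336). AFG2, the ATPase that removes Rlp24, rose to mid log (1.02 ± 0.26, SE, adjusted p = 0.0211) and late log (0.91 ± 0.17, SE, adjusted p = 0.00248). By library totals neither passed the test between early and late log, at -0.24 for SQT1 (adjusted p = 0.127) and 0.31 for AFG2 (adjusted p = 0.186). ARX1 (-0.40 ± 0.17, SE, adjusted p = 0.066), TIF6 (0.42 ± 0.17, SE, adjusted p = 0.0581) and YVH1 (-0.30 ± 0.14, SE, adjusted p = 0.0845) did not pass the test between early and late log, though each did without early log replicate 3.

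Beside the large subunit genes, 27 of 57 small subunit genes rose and 3 fell from early to late log, with a median of 0.50, and 18 of 34 genes of the mitochondrial large subunit rose and 8 fell, with a median of 0.71. Of all genes 33% rose and 39.2% fell. By library totals 5 rose and 11 fell for the small subunit (median -0.09), and 11 rose and 11 fell for the mitochondrial subunit (median 0.11). The shares of all genes were then 14.1% and 55.3%. The numbers without early log replicate 3 were 36 and 10 for the small subunit and 21 and 8 for the mitochondrial subunit. Of all genes 38.4% rose and 42.4% fell without it. With the run as a term, where that library is the only one of early log, the medians were 1.09 and 0.53. From early to mid log the numbers were 2 and 3 for the small subunit and 6 and 7 for the mitochondrial subunit, beside 20.7% and 24.2% of all genes. Without mid log replicate 1 they were 15 and 8, and 9 and 18, beside 33.6% and 42.8% of all genes.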

How the data were processed

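Polyadenylated RNA was made into libraries with a directional kit and sequenced as single reads. Alignment to R64-1-1 used STAR, and the authors deposited raw counts per gene from HTSeq, version 0.12.3 by the submitters' notes, while the study's methods name another version. The strand setting, feature type and read length are not given in the sources used here. Lines that name no gene (no feature, 6.65% to 10.7% of reads; ambiguous, 0.281% to 0.511%; multiple matches, 7.46% to 11.2%) were set aside, and 319 of 7127 genes had no counts. No other gene annotated in RefSeq overlapped a coding base of the 81 genes.

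Groups came from the labels and runs from the study's methods. Each comparison took only the 6 libraries of its subphases and was fitted with edgeR 4.0.16 in R 4.3.3 (filterByExpr, TMM, quasi-likelihood test, Benjamini-Hochberg at 0.05). SE were derived from the F statistic. CPM were scaled by TMM over the 9 libraries. Single values were tested with exact permutation (scipy 1.17.1), which for 3 against 3 cannot go below 0.1. Coordinates, coding lengths and sequences were read from RefSeq's R64. At these depths the spread between libraries, not counting error, limits the precision. In a simulation that shifted 200 genes by a log2 value of 2 the fit recovered 79.5% (early to mid), 95.5% (mid to late) and 99% (early to late log), with 3.64%, 4.02% and 3.88% of calls false. The simulation had no libraries that stand apart, as many genes shifted up as down and the same dispersion for all genes. Far more genes were called in the data from early to mid and early to late log than were shifted, so these rates need not hold there.

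Named genes are the stalk genes, the 3 highest and 3 lowest log2 fold changes per comparison, pairs with the 3 highest and 3 lowest early log A shares, the 4 pairs whose A share changed most, RPL3, RPL5, RPL10, RPL11A, RPL11B, RPL22A, RPL22B, RPL24A, RPL24B, RPL25, RPL28, RPL30, RPL40A, RPL40B, RPL41A and RPL41B, and the regulators and escort factors. Others were named after their values were seen. Members, lists and rule were chosen with earlier results of these data known. Alternatives were DESeq2 1.42.0 and its size factors, library totals, no filter, 10 counts in every library, all 9 libraries, a replicate block, length and GC trends, run as a term, raw shares, other windows and each library left out. Leaving out early log replicate 3 with mid log replicate 1, and the regulator, escort factor, small subunit and mitochondrial lists without either library or with the run term, were chosen after seeing the data.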

Additional observations from a re-analysis of the deposited data

How the results depend on the processing

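The scaling, the libraries that stood apart and the trend with length set most of the values that moved, and 156 of the 201 values under alternatives stayed within 1.5 times the reported count or within the spread. Among these, raw shares and other windows could hardly move a value, because the division by windows cancels in nearly all pairs. From early to mid log the 7 higher and 10 lower genes became 1 and 25 by library totals (median -0.74, all genes 3.63% and 35.7%). They became 4 higher without a filter (all genes 16.4%) and 3 higher with at least 10 counts in every library (all genes 19.4%). All 9 libraries in one fit gave 11 and 17 (all genes 27.0% and 30.6%), and removal of the GC trend 0 higher (all genes 26.6%). From mid to late log, with 0 calls, library totals gave 19 higher (median 0.54, all genes 6.22%). DESeq2 gave 6 higher (all genes 2.45%), all 9 libraries 3 higher (all genes 2.74%), and removal of the length trend a median of -0.10. From early to late log the 28 higher and 12 lower genes became 10 and 30 by library totals (median -0.27, all genes 14.1% and 55.3%). They became 6 lower with all 9 libraries (all genes 30.2%), 11 and 28 without the length trend (all genes 37.8% and 33.4%) and 18 higher without the GC trend (all genes 37.1%). With the run as a term, which leaves early log replicate 3 as the only early log library, the median was 0.90. The summed share in TMM-scaled CPM gave log2 ratios of 0.34, 0.16 and 0.50 from early to mid, mid to late and early to late log. Beyond the construction of each alternative, the cause was not tested.

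Leaving out single libraries gave 0 to 23 higher and 0 to 25 lower genes from early to mid log, with both highest numbers without mid log replicate 1. From mid to late log the ranges were 0 to 43 higher and 0 to 17 lower, again highest without mid log replicate 1, and from early to late log 19 to 40 higher and 8 to 26 lower, highest without early log replicate 3. Medians ranged from -0.10 to 0.23, from 0.21 to 0.29 and from 0.16 to 0.43. The log2 ratios of the summed share ranged from -0.64 to -0.37, from 0.32 to 0.36 and from -0.31 to -0.03. Where an arm was left with 2 libraries the spread was pooled over both arms. The pairs with separate A shares numbered 17 to 26 from early to mid log, 8 to 28 from mid to late log and 24 to 30 from early to late log. Without early log replicate 3 and mid log replicate 1 together, 37 rose and 36 fell from early to mid log (all genes 41.8% and 47.8%). Raw shares and windows of 50 or 100 bases changed no number of pairs. They could hardly do so, because the copies have equal numbers of unique windows in all pairs but RPL16 and RPL22.

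The replicate numbers did not pair the samples: deviations of same-numbered libraries correlated at 0.05, 0.05 and 0.05 from early to mid log, 0.08, 0.46 and -0.47 from mid to late log, and 0.22, -0.05 and 0.03 from early to late log. With the replicate block 2 genes rose and 16 fell from early to mid log (all genes 17.0% and 27.5%), and 0 passed from mid to late log (all genes 0% and 0.017%). From early to late log 29 rose and 9 fell (all genes 32.2% and 38.5%).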
